A study of Mus musculus with 12 samples.

Results

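The interaction of vitamin B12 with ischemia/reperfusion is the part of the B12 difference in injured hearts that is not seen in sham-operated hearts. For each gene it was calculated as (I/R+B12 minus I/R) minus (Sham+B12 minus Sham), with every term a mean of 3 libraries on the scale log2(FPKM + 1). FPKM is a count of sequenced fragments divided by the length of the transcript and by the size of the library. All 12 libraries of the series enter the contrast, and 13001 of the 55487 genes in the table passed the filter on low values (an FPKM of at least 1 in at least 3 libraries) and were tested. A value of 0 means that B12 went with the same difference in both kinds of heart. A negative value means that the I/R+B12 libraries are lower, or the Sham+B12 libraries higher, than the sum of the separate differences gives.

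The RNA came from hearts of wild-type mice, whose strain and age the labels do not give. The Sham group (titled C) had surgery without coronary occlusion on normal water. The Sham+B12 group (titled VC) had the same surgery after 7 days of B12 in the drinking water at 50 mg/L, at an intake of 4 mL a day. In the I/R group (titled IR), on normal water, the left anterior descending artery was tied for 45 min and the heart was reperfused for 24 h. The I/R+B12 group (titled VTIR) had the same occlusion after the same B12 water. The labels do not state that the 3 libraries of a group come from separate animals, so the p-values measure the spread between these libraries only.

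Vitamin B12 is the cofactor of both methionine synthase (Mtr), which links folate to methionine, and methylmalonyl-CoA mutase (Mmut), which feeds the breakdown of odd-chain fatty acids and some amino acids into the citric acid cycle. After coronary occlusion and reperfusion, dying cardiomyocytes trigger complement, interferon and cytokine signalling, neutrophils enter first, monocytes and macrophages follow, and fibroblasts begin to lay down matrix. A factorial design with both treatments, alone and together, is the one that allows the question of whether the vitamin acts differently in injured tissue to be put to the RNA.

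These 3 libraries, among others, were nearest to a library of another group. The nearest library to Sham 3, by correlation across genes, was I/R+B12 1 (r = 0.969). The nearest to I/R 3 was Sham 2 (r = 0.982), and the nearest to I/R+B12 1 was I/R 1 (r = 0.979). They were not alone in this. I/R+B12 3 was nearest to Sham 3 (r = 0.955) and Sham 2 to I/R 3. Sham 1 was nearest to Sham+B12 3, and both Sham+B12 2 and Sham+B12 3 to Sham 1. The mean r with its own group was 0.941 for I/R+B12 1 and 0.942 for I/R+B12 2. The neutrophil gene S100a9 read 9.1 FPKM in I/R 3 against 706.2 and 681 in I/R 1 and I/R 2, and 36.57 in Sham 3 against 3.32 and 5.68 in Sham 1 and Sham 2. All labels were kept as given. For many lists and some genes, results are also given without Sham 3 and I/R 3, or without I/R+B12 1. Values given only with all 12 libraries can depend on these libraries too. Without Sham 3 and I/R 3 the interaction of Lmod3 went from -2.27 to -1.35 and that of Dbp from -2.50 to -1.70. Without I/R+B12 1 that of Mtr went from -1.44 to -1.86. Cardiomyocyte genes marked every library as heart (13 of 13 markers tested, summed FPKM of 47330 to 74073). Depth, estimated from the steps between low values, was 24.25 to 28.75 M fragments a library.

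Short stretches upstream of the RefSeq transcription starts (build GRCm38.p6, the same assembly as mm10) are shown for 7 genes whose values are given below, 1 or 2 for each gene group that has a well-known promoter motif. Capitals mark the motif, and each line runs 5′ to 3′ on the strand of the gene. The first pair belongs to the interferon-stimulated genes and carries a pair of GAAA spaced by 2 bases, the core of the interferon-stimulated response element. Both stretches lie upstream of all annotated exons, Bst2 at chr8:71537558-71537637 on the minus strand and Oas1a at chr5:120907526-120907605 on the minus strand, and in each 2 matches overlap.
Bst2: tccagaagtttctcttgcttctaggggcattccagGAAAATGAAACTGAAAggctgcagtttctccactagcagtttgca
Oas1a: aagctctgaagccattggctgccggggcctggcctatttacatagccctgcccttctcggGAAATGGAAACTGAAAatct
The next pair belongs to the glucocorticoid-responsive genes and carries GNACA and TGTNC spaced by 3 bases (N is any base), the palindrome of the glucocorticoid response element. Sgk1 (chr10:21993668-21993747, plus strand) lies within an intron of longer Sgk1 transcripts in GENCODE M21, and Mt1 (chr8:94178961-94179040, plus strand) is intergenic.
Sgk1: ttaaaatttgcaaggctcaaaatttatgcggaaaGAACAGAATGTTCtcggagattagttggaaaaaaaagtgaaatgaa
Mt1: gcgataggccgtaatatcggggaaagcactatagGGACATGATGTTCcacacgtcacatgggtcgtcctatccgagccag
Of the clock genes, Cry1 (chr10:85185072-85185151, minus strand, intergenic) and Per1 (chr11:69098746-69098825, plus strand, within an intron of a longer Per1 transcript) carry the E-box CACGTG, the site of the CLOCK and BMAL1 proteins.
Cry1: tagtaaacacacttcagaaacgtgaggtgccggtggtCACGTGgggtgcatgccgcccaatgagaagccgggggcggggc
Per1: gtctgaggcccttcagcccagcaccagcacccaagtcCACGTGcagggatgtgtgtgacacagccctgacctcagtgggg
Cyp1a1 (chr9:57697521-57697600, plus strand, within an intron of a longer Cyp1a1 transcript) carries GCGTG, the core bound by the aryl hydrocarbon receptor.
Cyp1a1: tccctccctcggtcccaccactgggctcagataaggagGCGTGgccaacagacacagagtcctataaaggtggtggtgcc

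In the 250 bases before the start, searched on both strands, the GAAA pair was found in 10 of 21 windows (47.6%) of the tested interferon-stimulated genes, 18 of which had a window, against 2.98% of all 32851 RefSeq windows. CACGTG was found in 6 of 20 windows of the clock genes (30.0%, against 6.02% of all) and the palindrome GNACA, 3 bases, TGTNC in 2 of 25 windows of the glucocorticoid-responsive genes (8.0%, against 0.387%), those of Mt1 and Sgk1. GCGTG is short and was found in 28.2% of all windows. No GCGTG match can lie within a CACGTG match. A match is a string of letters and no measurement of binding.

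No gene was called for the interaction. In limma, with Benjamini-Hochberg adjustment over 13001 genes, 0 genes had an adjusted p under 0.05 (0%), and the smallest adjusted p was 0.387. The unadjusted p was under 0.05 in 1595 genes (12.3%), 443 of them positive (3.41%) and 1152 negative (8.86%), where 650.05 would be expected if all p-values were uniform. The 95% interval of a gene's interaction had a median half-width of 0.63 on the log2 scale (quartiles 0.50 and 0.83). These intervals are not adjusted for the number of genes, so interactions larger than that could also go uncalled, and none of any size was called. The count of 0 does not show that B12 acted alike in both kinds of heart.

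B12 went with larger differences in the injured hearts than in the sham-operated hearts. The absolute B12 difference had a median of 0.30 in I/R and 0.12 in Sham, and it was larger in I/R in 9669 of the 13001 genes (74.4%). The I/R+B12 libraries were also the least alike: the mean Pearson correlation of a library with the others of its group, across tested genes, was 0.941 to 0.947 in I/R+B12, 0.955 to 0.971 in I/R and 0.962 to 0.970 in Sham, which overlapped, and 0.982 to 0.984 in Sham+B12. The part of this spread in the larger differences was not tested. The I/R+B12 and I/R libraries did not overlap in 23.2% of genes, with I/R+B12 above in 4.41% and below in 18.8%. The Sham+B12 and Sham libraries did not overlap in 10.5%, with Sham+B12 above in 1.54% and below in 8.98%. Neither share was compared with the one that chance gives. Across genes the 2 B12 differences, which share no library, had a Pearson r of -0.06 (Spearman rho of -0.10), and r was 0.16 without Sham 3 and I/R 3. Of the 1595 genes with an unadjusted p under 0.05, 1277 (80.1%) had B12 differences of opposite sign and 1471 (92.2%) had the larger one in I/R. These genes were picked by the gap between the 2 B12 differences. That choice favours opposite signs and a larger value in the more widely spread group, so both shares are a description only. Opposite signs were not counted over all tested genes.

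The balance of directions depended on the scaling. The median interaction over all tested genes was -0.14, made of a median B12 difference of -0.21 in I/R and -0.07 in Sham. With median-ratio scaling the median was -0.002 and 52.4% of 1733 genes at an unadjusted p under 0.05 were negative, against 72.2% with the deposited scale. With quantile normalization it was 49.0% of 1687. Values below are on the deposited scale, unless another scaling is named, and are to be read against the all-gene median of -0.14. For values from the reduced fits, that median was -0.18 without Sham 3 and I/R 3 and -0.24 without I/R+B12 1.

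**Figure D1:**
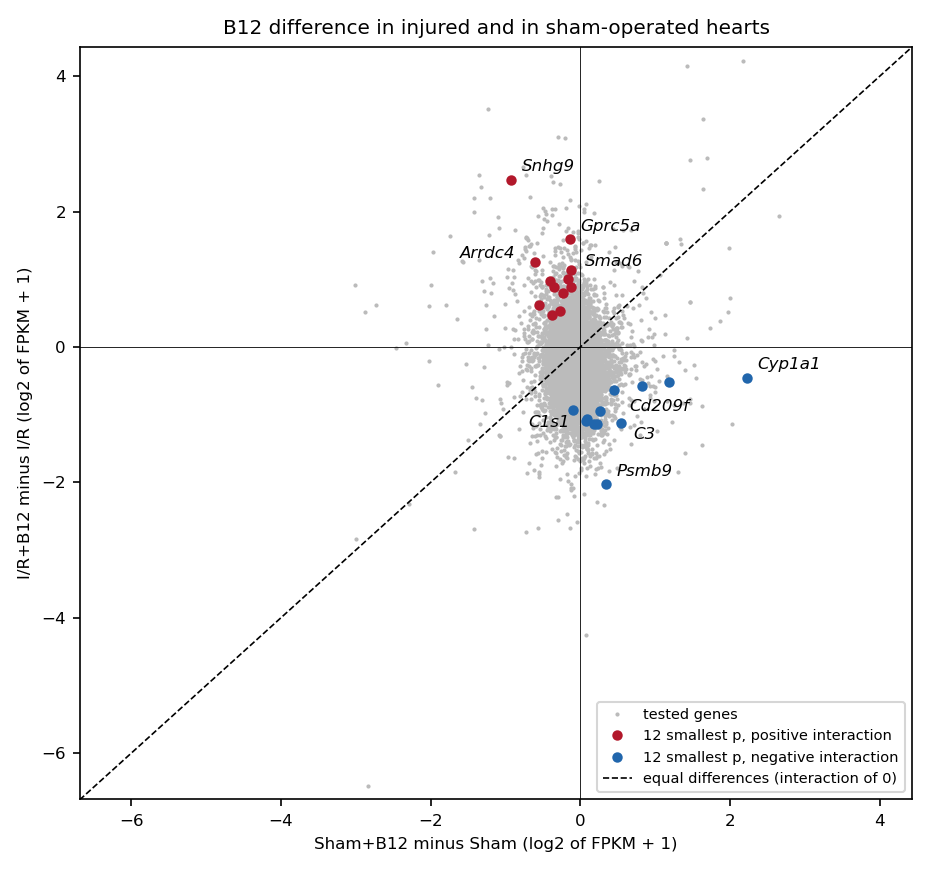
B12 difference in sham-operated hearts (Sham+B12 minus Sham, horizontal axis) and in injured hearts (I/R+B12 minus I/R, vertical axis) for each of 13001 tested genes, in log2 of FPKM + 1; the dashed line marks equal differences. The cloud is taller than it is wide (median absolute difference 0.30 in I/R, 0.12 in Sham), and the 24 coloured genes, chosen for their small p, include Snhg9 at the upper left and Cyp1a1 at the right.

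The 24 genes described first are the 12 positive and 12 negative ones with the smallest p, all with an adjusted p of 0.387. They were picked by that p, so their values are a description. In 11 of the 12 positive genes the 3 I/R+B12 libraries lay above all 9 others (2.51% of all tested genes), and in 8 of the 12 negative genes they lay below all 9 others (4.46%). In 3 negative genes the Sham+B12 libraries lay above all 9 others (0.4%). The remaining 2 were Psmb9 and Snhg9. Cd209f, among the 3 with Sham+B12 above, passed the filter on low values only through those libraries, so its pattern was fixed by the filter. All 24 kept their sign without Sham 3 and I/R 3 and with median-ratio scaling. Those fits use the libraries by which the genes were picked, so the kept signs are no independent support.

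Complement, the plasma cascade that tags debris and recruits leukocytes, gave 3 of the 12 negative genes of smallest p, and in all 3 the I/R+B12 libraries were the lowest of the 12. C3, its central protein (ENSMUSG00000024164, chromosome 17, 57203970 to 57228136, mm10), read 52.46, 62.57 and 39.69 FPKM in Sham, 60.56, 77.21 and 86.81 in Sham+B12, 80.96, 82.77 and 54.8 in I/R, with 35.36, 29.5 and 32.71 in I/R+B12. The I/R+B12 libraries thus lay below all 9 others while Sham+B12 and Sham overlapped. The interaction was -1.66 (SE 0.29). C1s1 and C1ra, neighbours on chromosome 6, encode the 2 proteases of the first complement component. C1s1 read 9.69, 9.72 and 9.67 FPKM in I/R+B12, close to each other, against 20.98, 21.32 and 23.13 in I/R, 18.87, 18.65 and 19.46 in Sham+B12, and 19.59, 21.56 and 13.56 in Sham (interaction -1.17, SE 0.21). C1ra read 6.14, 5.08 and 6.66 in I/R+B12 against 9.14 to 12.49 in the other 9 libraries (-0.83, SE 0.18).

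Of 16 complement genes tested, 15 had a negative interaction (63.7% of all genes did), 9 of them at an unadjusted p under 0.05 (8.86% of all genes were negative at that p), and none was called. The list median was -0.98, and -0.88 without Sham 3 and I/R 3. C4b, a member of the classical pathway, read 4.28, 1.66 and 3.48 FPKM in I/R+B12 against 5.74 to 12.89 elsewhere. In 5 of the 16 genes the I/R+B12 libraries lay below all 9 others (4.46% of all genes). The list includes C1qa, C1qb and C1qc, made largely by macrophages, and resident macrophage markers, given next, had values of the same sign.

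Markers of resident cardiac macrophages, the tissue cells that clear debris, were low in 2 of the 3 I/R+B12 libraries. Their list score, the mean log2 value with each gene centred over the 12 libraries, was 0.17, -1.01 and -0.88 in I/R+B12 1, 2 and 3, between 0.21 and 0.52 in I/R, -0.04 to 0.37 in Sham+B12, and -0.33 to 0.23 in Sham. Library I/R+B12 1 therefore lay with the other groups. The interaction was negative in 14 of 15 markers (63.7% of all genes), 11 at an unadjusted p under 0.05 (8.86% of all genes), with a median of -1.16 (-0.87 without Sham 3 and I/R 3, and -1.55 without I/R+B12 1). Adgre1, the macrophage marker F4/80, read 13.55, 12.67 and 9.59 FPKM in I/R but 8.71, 2.22 and 1.92 in I/R+B12. Gas6, a ligand that bridges dying cells to phagocytes, read 62.63, 39.39 and 63.52 in I/R+B12 against 69.21 to 110.3 in the 9 others. Folr2, a folate receptor of resident macrophages, read 17.34, 9.03 and 12.46 in I/R+B12 against 27.56, 26.23 and 30.8 in I/R, though Sham 3 had 12.41. In whole tissue, fewer cells of a type and less RNA per cell cannot be told apart. The summed FPKM of the 15 markers was 593.72 to 739.62 in I/R but 225.95 to 524.46 in I/R+B12, and its part in the complement values was not tested. The list score of fibroblast markers was 0.10 to 0.53 in I/R and -0.59 to -0.35 in I/R+B12, and its part was not tested either.

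**Figure D2:**
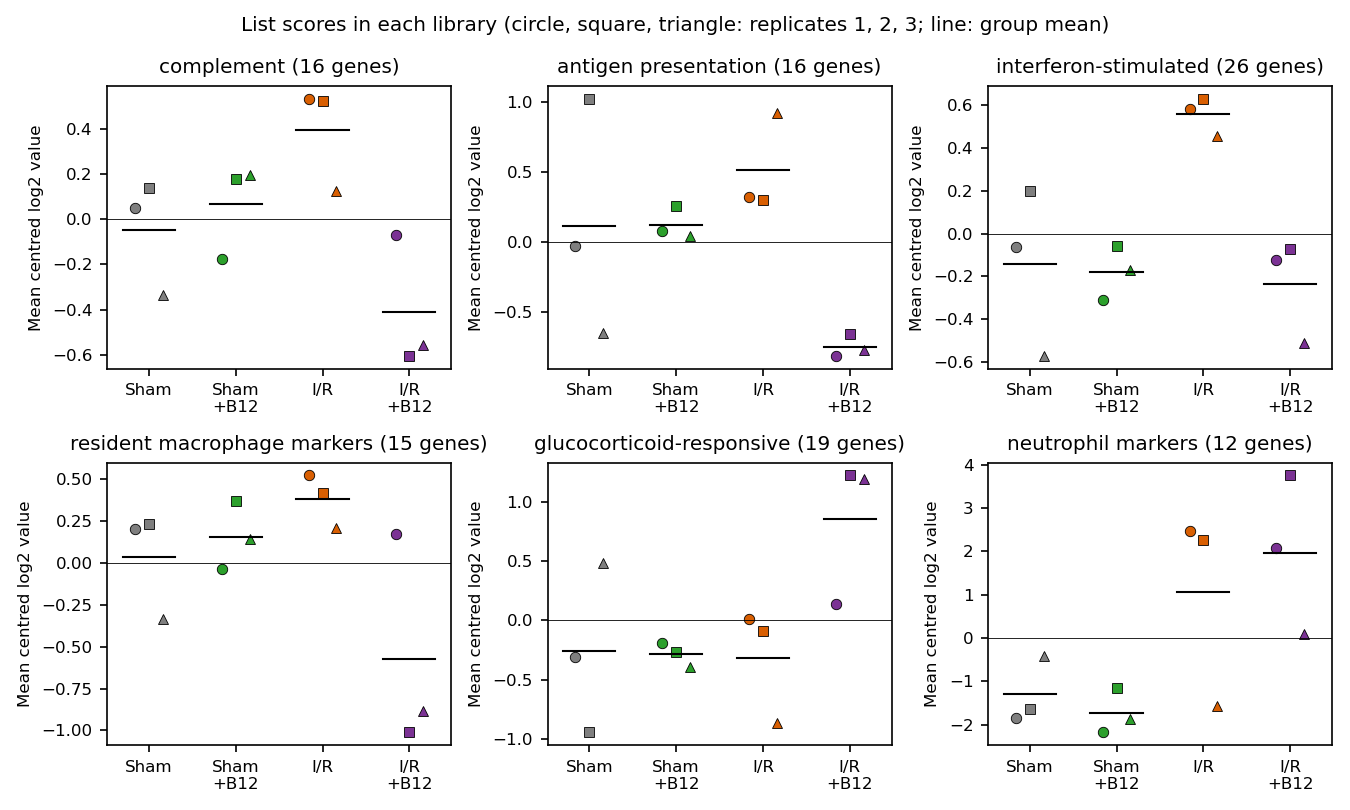
List scores (mean log2 value of the tested genes, each centred over the 12 libraries) of 6 gene lists in each library, with symbols for replicates 1 to 3 and a line at the group mean. The interferon scores of the 3 I/R libraries lie above the other 9, whereas the neutrophil list splits the I/R group, with I/R 3 at -1.58 and I/R 1 and I/R 2 at 2.48 and 2.27.

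Interferon-stimulated genes, the antiviral programme that type I and type II interferons switch on, were high in I/R and not in I/R+B12. Their list score was 0.58, 0.63 and 0.46 in I/R but -0.12, -0.07 and -0.51 in I/R+B12, against -0.31 to -0.06 in Sham+B12 and -0.57 to 0.20 in Sham. All 3 I/R libraries, including I/R 3, lay above the other 9. The interaction was negative in 24 of 26 genes (63.7% of all genes) and at an unadjusted p under 0.05 in 13 of them (8.86% of all genes), with a median of -0.77 (-0.48 without Sham 3 and I/R 3). In 11 of the 26 genes the I/R libraries lay above all 9 others, which they did in 4.69% of all tested genes.

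Bst2, an interferon-induced membrane protein that tethers virus particles and whose upstream stretch is shown above, read 74.51, 81.48 and 90.88 FPKM in I/R but 36.13, 25.06 and 18.66 in I/R+B12, 43.38, 51.22 and 48.86 in Sham+B12, and 53.42, 70.85 and 26.84 in Sham (interaction -1.67, SE 0.44). Oas1a, a sensor of double-stranded RNA, had an interaction of -1.47 and Ifi27l2a of -1.96. The exceptions were Mx1 (0.56) and Mx2 (0.48).

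Antigen presentation genes were lowest in I/R+B12, with the Sham libraries spread wide. The Sham libraries scored -0.03, 1.02 and -0.65, those of Sham+B12 from 0.04 to 0.25, those of I/R from 0.30 to 0.92, and the I/R+B12 libraries from -0.82 to -0.66, just below Sham 3. Psmb9, a subunit of the immunoproteasome (ENSMUSG00000096727, chromosome 17, 34181987 to 34187764), read 6.04, 3.06 and 2.21 FPKM in I/R+B12 against 14.94, 16.25 and 21.51 in I/R, 12.65, 14.96 and 15.23 in Sham+B12, and 13, 17.4 and 5.79 in Sham. Only Sham 3 reached into the I/R+B12 range. Its interaction of -2.36 (SE 0.50) became -1.80 without Sham 3 and I/R 3. The first exon of Psmb9 overlaps that of Tap1 on the other strand, and the labels do not say that strand was kept. Psmb8, the companion subunit, read 44.62, 45.16 and 49.59 in I/R but 22.8, 18.15 and 14.51 in I/R+B12 (-1.43, SE 0.40). All 16 list members were negative (63.7% of all genes were), 7 at an unadjusted p under 0.05 (8.86% of all genes), with a median of -1.18 (-0.58 without Sham 3 and I/R 3). The class II gene H2-Ab1 shows the spread: 74.02, 286.7 and 32.47 in Sham, 72.63, 73.31 and 203.5 in I/R, with 14.54, 29.86 and 33.88 in I/R+B12.

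Proliferation genes also had their highest values in I/R. Of 17 cell cycle genes, 15 had a negative interaction (63.7% of all genes did) and 5 did so at an unadjusted p under 0.05 (8.86% of all genes; median -0.66, and -0.57 without Sham 3 and I/R 3). Mcm2, part of the replicative helicase, read 7.12, 4.68 and 4.12 FPKM in I/R but 3.02, 1.29 and 1.75 in I/R+B12, with Sham+B12 at 2.82, 2.45 and 3.47 and Sham at 2.9, 3.05 and 1.6. Top2a, a topoisomerase of dividing cells, read 4.52, 2.12 and 2.2 in I/R but 0.28, 0.93 and 0.71 in I/R+B12. In 6 of the 17 genes the I/R libraries lay above all 9 others (4.69% of all genes).

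In the matrix list, collagen IV stood apart from the other collagens. Both chains of the basement membrane collagen IV had positive values, while every other tested collagen of the list had a negative one. These were the fibrillar collagens, the main protein of scar, and also others, such as Col8a1 (-0.97), Col6a2 (-0.84) and Col15a1 (-0.99). Col3a1 read 188.4, 180.7 and 128.7 FPKM in I/R but 46.5, 15.85 and 18.1 in I/R+B12 (interaction -2.001, SE 0.61). Col1a2 read 75.55, 51.57 and 55.16 in I/R but 29.42, 13.72 and 21.07 in I/R+B12 (-1.13, SE 0.36). The B12 difference in Sham was negative too, at -0.73 for Col3a1 and -0.38 for Col1a2, with overlapping libraries. Its median over the matrix list was -0.53 in Sham and -0.81 in I/R. Pcolce, which enhances the trimming of procollagen, read 30.93, 17.47 and 26.89 in I/R+B12 against 36.69 to 72.88 elsewhere (-1.08, SE 0.28). Col4a1 (ENSMUSG00000031502, chromosome 8, 11198423 to 11312826) read 108, 125.6 and 152.7 in Sham, 75.56, 84.51 and 100.7 in Sham+B12, 197.8, 165.2 and 143.7 in I/R, with 207.6, 320.5 and 258.8 in I/R+B12. Its Sham+B12 libraries lay below Sham and its I/R+B12 libraries above I/R, so the 2 B12 differences of -0.56 and 0.62 point in opposite directions (interaction 1.18, SE 0.27). Of 30 matrix genes, 8 were negative (8.86% of all genes were) and 2 positive (Col4a1 and Col4a2; 3.41% of all genes) at an unadjusted p under 0.05, with a list median of -0.33 (-0.64 without Sham 3 and I/R 3). The summed FPKM of 12 fibroblast markers, of which Col1a1 and Col1a2 are 2, was 1294 to 1790.5 in I/R but 972.42 to 1163.8 in I/R+B12. Its part in the collagen values was not tested.

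On the positive side, 3 genes of bone morphogenetic protein and TGF-beta signalling, Smad6, Smad7 and Id1, had I/R+B12 libraries above all others. Smad6, an inhibitory SMAD (ENSMUSG00000036867, chromosome 9, 63953076 to 64022059), read 12.03, 13.84 and 17.65 FPKM in I/R+B12 against 7.03, 5.28 and 5.71 in I/R, 5.57, 5.41 and 7.01 in Sham+B12, and 7.03, 6.46 and 6.34 in Sham. The other 9 libraries thus stayed within 5.28 to 7.03, and the interaction was 1.27 (SE 0.23). Smad7, the other inhibitory SMAD, read 8.07, 9.08 and 6.8 in I/R+B12 against 4.25 to 5.73 in the 9 others (0.61, SE 0.21). Id1, a target of the same pathway, read 141.8, 146.2 and 118.3 in I/R+B12 against 60.91 to 107.1 in the others (0.47, SE 0.19). These 3 were the members of the 23-gene TGF-beta and SMAD list at an unadjusted p under 0.05, all positive (3.41% of all genes were), and the 3 with I/R+B12 above all 9 others (2.51% of all genes). Bambi, an inhibitory pseudoreceptor of the same list, had -0.43 (SE 0.36). The list median was 0.18, and the receptor-regulated Smad2 and Smad3 had values of 0.11 and -0.09.

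Among the other genes of smallest p with a positive interaction were Cav3, the muscle caveolin, and Arrdc4, an arrestin-domain protein tied to glucose uptake. Cav3 read 113.5, 137.8 and 126 FPKM in I/R+B12 against 84.09, 67.38 and 54.59 in I/R, 49.73, 49.99 and 52.81 in Sham+B12, and 60.43, 52.9 and 87.35 in Sham (interaction 1.24, SE 0.27). Arrdc4 read 9.31, 21.78 and 16.94 in I/R+B12 against 2.83 to 7.26 in the others (1.87, SE 0.40). Itga3, an integrin subunit (1.17), Gprc5a, an orphan receptor (1.73), Tbx3, a transcription factor of the conduction system (1.01), Ptprk, a receptor phosphatase (0.85), Axin1, a scaffold of the beta-catenin destruction complex (0.81), Dcaf10 (1.03) and the noncoding Snhg14 (1.37) had the same pattern of I/R+B12 above all 9 others. Snhg9 was listed at 0 in 8 libraries and read 5.64, 3.84 and 4.3 in I/R+B12, with 5.77 in Sham 3. It passed the filter on low values through the I/R+B12 libraries, with Sham 3 the only other library above 0. It lies antisense within Rps2, a highly expressed ribosomal protein gene, so its reads are uncertain without strand.

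**Figure D3:**
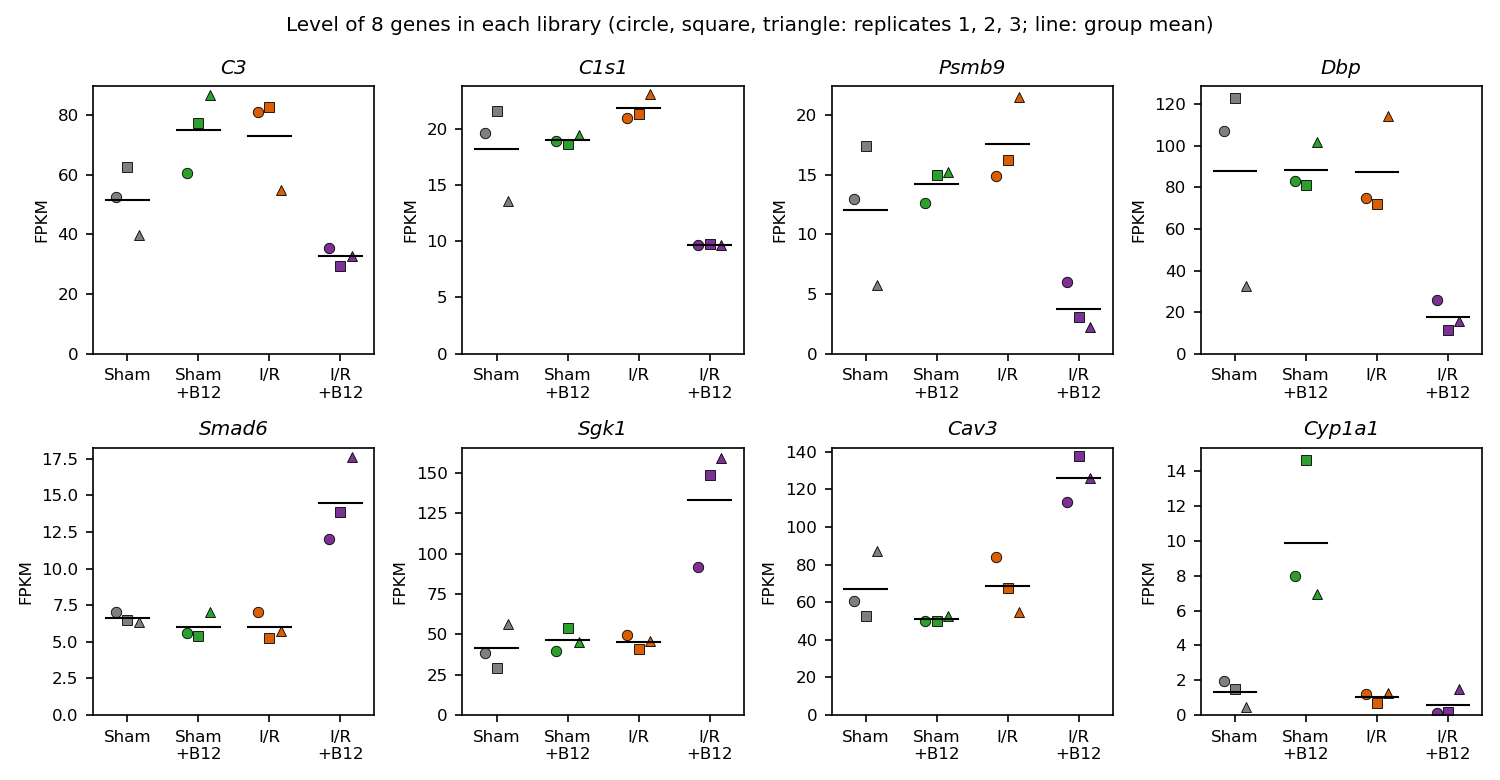
FPKM of 8 genes in each of the 12 libraries, with symbols for replicates 1 to 3 and a line at the group mean. In C3, C1s1 and Dbp the 3 I/R+B12 points lie below all others, in Smad6, Sgk1 and Cav3 they lie above all others, and in Cyp1a1 the 3 Sham+B12 points do.

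Glucocorticoid-responsive genes had the highest list median after the neutrophil markers, 1.11 over 19 genes, of which 16 were positive (36.3% of all genes were) and 7 at an unadjusted p under 0.05 (3.41% of all genes were positive at that p). Without Sham 3 and I/R 3 the median was 0.57 and 1 gene was positive at that p. Sgk1, a kinase that controls ion transport and whose upstream element is shown above, read 91.66, 148.8 and 159.2 FPKM in I/R+B12 against 29.18 to 56.37 in the 9 others (interaction 1.30, SE 0.36). Mt1, a metal-binding protein, read 2015, 4938 and 3674 in I/R+B12 against 1249, 1328 and 304.6 in I/R, 701.9, 666.4 and 470.8 in Sham+B12, and 714.1, 274.8 and 1680 in Sham. The I/R and Sham groups each held a library far from the others. Fkbp5, a chaperone of the glucocorticoid receptor, read 43.16, 61.48 and 82.81 in I/R+B12, with 59.35 in Sham 3, where the other 8 libraries lay between 5.74 and 25.85. Its interaction of 2.37 became 0.95 without Sham 3 and I/R 3. Pdk4, which shuts off glucose oxidation, read 876.5 and 1028 in replicates 2 and 3 of I/R+B12 but 141.6 in its replicate 1, and 74.28, 134.3 and 75.39 in I/R. The cell cycle inhibitor Cdkn1a read 359.6 and 410.3 in replicates 2 and 3 of I/R+B12, 63 in its replicate 1, and 93.65 in Sham 3.

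Circadian clock genes had large values in both directions, so their list median of 0.21 (0.07 without Sham 3 and I/R 3) hides the pattern. Dbp, a clock output gene, read 25.79, 11.39 and 15.73 FPKM in I/R+B12 against 75.17, 72.23 and 114.7 in I/R, 83.27, 80.98 and 101.7 in Sham+B12, and 107.4, 123.3 and 32.44 in Sham (interaction -2.50, SE 0.62). Arntl, which encodes BMAL1 and peaks in antiphase to Dbp, read 4.71, 9.19 and 10.89 in I/R+B12 against 1.89, 2.11 and 1.32 in I/R, 0.72, 0.87 and 0.87 in Sham+B12, and 0.34, 1.2 and 4.86 in Sham (2.19, SE 0.63). Sham 3 was the one other library with low Dbp and high Arntl. Nfil3, a repressor of the same promoters as DBP, read 10.4, 29.44 and 14.21 in I/R+B12 against 2.24 to 8.96 elsewhere. Cry1, whose upstream E-box is shown above, read 6.93, 9.5 and 8.99 in I/R+B12 against 3.28 to 5.8 elsewhere, while Per3 had 2.51, 1.21 and 1.24 and lay below I/R. At an unadjusted p under 0.05, 4 of 18 genes were positive (Arntl, Nfil3, Cry1 and Per1; 3.41% of all genes were) and 3 negative (Dbp, Nr1d2 and Per3; 8.86% of all genes). The labels used here give no time of day of tissue collection.

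Values of the acute inflammatory lists rested on the 2 libraries named above. All 12 tested neutrophil markers had a positive interaction (median 1.46), and without Sham 3 and I/R 3 only 3 of 12 did (median -0.66). Leaving out I/R 3 alone gave a median of -0.13. Lcn2, an iron-trapping protein of neutrophils and injured tissue, read 488.7, 1176 and 171.7 FPKM in I/R+B12 against 278.6, 447.2 and 3.04 in I/R, 4.25 to 7.55 in Sham+B12, and 5.01, 3.2 and 210.5 in Sham; its interaction of 3.90 (SE 2.48) became -0.05. The cytokine and chemokine list went from 0.49 to -0.32, the acute phase list from 0.94 to 0.12, and the immediate early list from 0.88 to 0.37. The monocyte and recruited macrophage list, negative with all libraries, went from -0.75 to -1.34. Within I/R+B12 the neutrophil scores of 2.07, 3.75 and 0.08 spread as widely as the group differences. No direction is drawn from these lists.

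**Figure D4:**
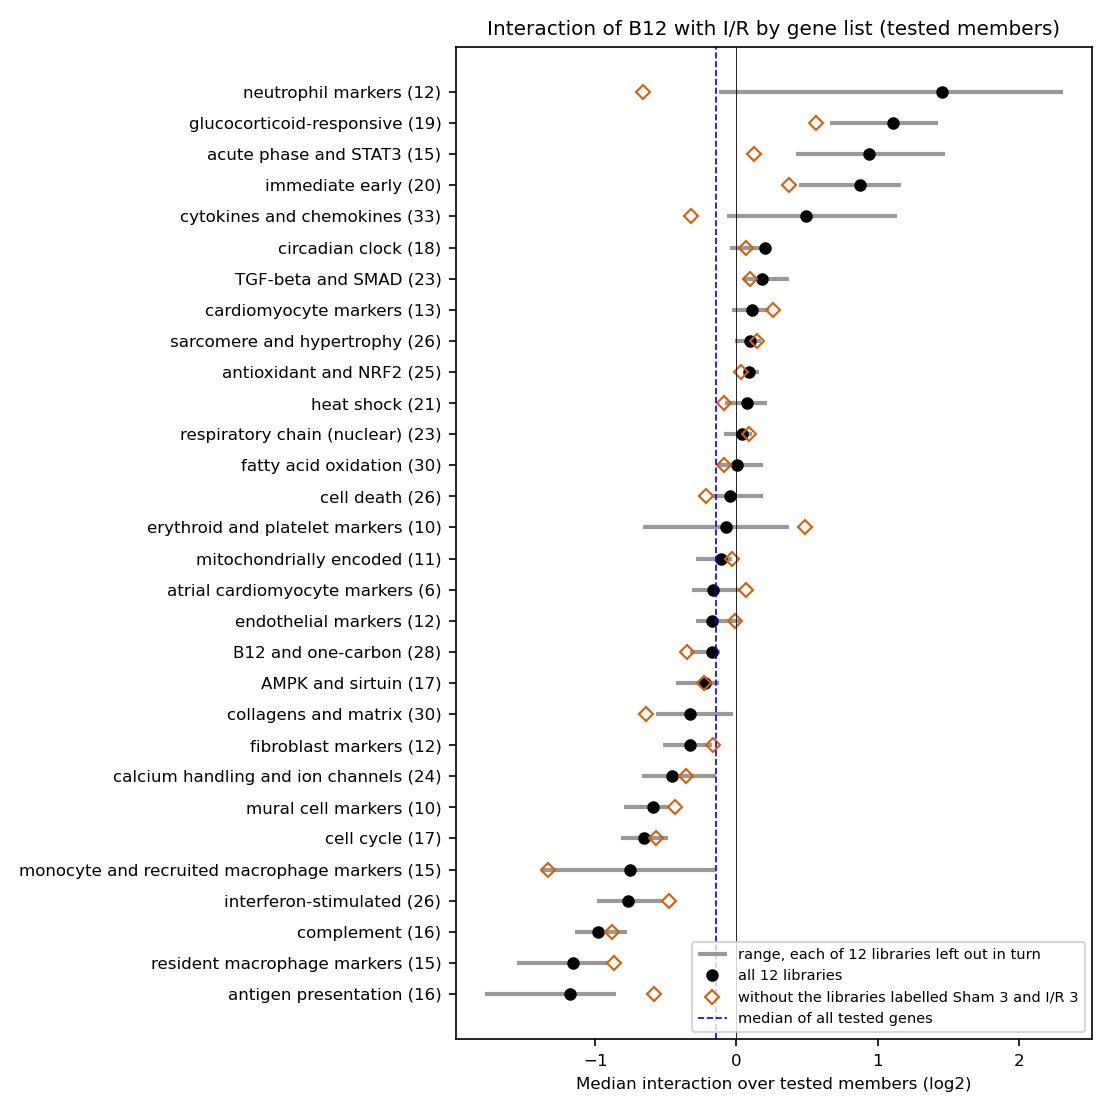
Median interaction (log2) over the tested members of each list with at least 5 of them (number in brackets): filled points with all 12 libraries, bars the range with each library left out in turn, open diamonds without Sham 3 and I/R 3, dashed line the median of all tested genes (-0.14). All values of the complement and resident macrophage lists lie to the left of the dashed line, while the diamond of the neutrophil markers lies at -0.66 against a point at 1.46.

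The list of B12 and folate metabolism lay near all tested genes, with 19 of 28 genes negative (63.7% of all genes were) and a median interaction of -0.18 (-0.14 over all genes). Library I/R+B12 1 scored 0.04 on it and lay among the other groups, while I/R+B12 2 scored -0.40 and I/R+B12 3 scored -0.19. The members with the smallest p are given here as single genes. Mtr read 17.76, 5.25 and 8.86 FPKM in I/R+B12 against 17.99, 24.21 and 27.63 in I/R, 20.19, 26.17 and 20.74 in Sham+B12, and 24.44, 17.96 and 14.3 in Sham (interaction -1.44, SE 0.48). Mmut read 16.58, 9.58 and 14.51 in I/R+B12 against 19.65 to 24.93 in the 9 others (-0.78, SE 0.25). Slc46a1, the proton-coupled folate transporter, read 0.8, 0.35 and 0.42 in I/R+B12 against 1.33 to 2.03 in the others (-0.71, SE 0.23). Mmachc and Mmaa, which process B12 and load it onto its enzymes, had interactions of -0.73 and -0.53.

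For the uptake of B12, values were smaller. Tcn2, the plasma carrier, had an interaction of -0.38 (SE 0.27), and its receptor Cd320 of 0.24 (SE 0.22), with overlapping libraries in both kinds of heart. Of the 28 tested genes, 6 were negative at an unadjusted p under 0.05 (Mtr, Folr2, Mmut, Mmachc, Slc46a1 and Mmaa; 8.86% of all genes were) and none was positive at that p. The list median became -0.35 without Sham 3 and I/R 3, and -0.03 with median-ratio scaling, where all genes had -0.002. The list median of the B12 difference was -0.26 in I/R (-0.21 over all genes) and 0.02 in Sham (-0.07). In 4 of the 28 the I/R+B12 libraries lay below all 9 others (4.46% of all genes). Folr2 is also a macrophage marker, and the macrophage values above apply to it.

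In Cyp1a1 and Cd209f the larger B12 difference was the one in the sham-operated hearts. Cyp1a1, a xenobiotic-metabolising enzyme (ENSMUSG00000032315, chromosome 9, 57687928 to 57703824), read 8, 14.65 and 6.94 FPKM in Sham+B12, 1.96, 1.5 and 0.48 in Sham, 1.22, 0.7 and 1.24 in I/R, with 0.12, 0.17 and 1.51 in I/R+B12 (interaction -2.68, SE 0.52). Cd209f, a lectin of myeloid cells, read 1.27, 1.99 and 1.62 in Sham+B12 and at most 0.8 in every other library. It passed the filter on low values only through the Sham+B12 libraries, so their place above all others was fixed by the filter. In Pfkfb2, which sets the level of a glycolytic activator, both B12 differences contributed: 3.83, 3.91 and 4.6 in Sham+B12 against 2.5, 2.58 and 3.21 in Sham, and 2.07, 1.34 and 1.5 in I/R+B12 against 2.72, 3.23 and 3.29 in I/R (-1.08, SE 0.22). Lrrc2, a leucine-rich repeat protein of heart and muscle (-1.16), Nicn1 (-1.33) and Srrm4, a splicing factor (-1.36), had I/R+B12 below all 9 others.

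Energy metabolism and the contractile apparatus had list medians near 0, above the all-gene median of -0.14. The fatty acid oxidation list stood at 0.00, with 24 of 30 genes above the all-gene median, the nuclear-encoded respiratory chain at 0.04, with 22 of 23 above it, and the sarcomere and hypertrophy list at 0.09, with 18 of 26 above it. Pdk4, given above, was the 1 fatty acid gene at an unadjusted p under 0.05, and no respiratory chain gene was. In the sarcomere list Lmod3, which nucleates thin filaments, read 7.46, 4.48 and 7.56 FPKM in I/R+B12 against 17.63, 18.92 and 43.03 in I/R, 30.01, 34.5 and 35.23 in Sham+B12, and 34.13, 34.33 and 10.7 in Sham (interaction -2.27, SE 0.60). The stretch-responsive Ankrd2 had 3.62 and Xirp1 1.73, both with one high library, I/R+B12 2, at 74.36 and 243.8 FPKM. The fetal myosin Myh7 (-0.17, SE 1.13) changed sign with the libraries used, and the adult myosin Myh6 had 0.23 (SE 0.32).

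The AMPK and sirtuin list, sensors of energy and NAD, had a median of -0.22 (-0.14 over all genes) with 13 of 17 genes negative (63.7% of all genes were). The median was -0.09 with median-ratio scaling and -0.43 without I/R+B12 1. Sirt5 (-0.72) and Nampt (-0.51), the enzyme that recycles NAD, were the 2 of 17 members at an unadjusted p under 0.05. Of all genes, 8.86% were negative at that p. Sirt3 had -0.25 (SE 0.23), Prkaa1 -0.34 (SE 0.22), Prkaa2 -0.42 (SE 0.32) and Ppargc1a -0.22 (SE 0.25), with overlapping libraries in both kinds of heart. The natriuretic peptides Nppa (1.34, SE 1.02) and Nppb (1.27, SE 1.12) had wide errors, with 3157 FPKM of Nppa in Sham 3 and 2039 of Nppb in I/R+B12 2.

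Leaving out I/R+B12 1 alone gave 1840 called genes of 12906 in limma, at a Benjamini-Hochberg adjusted p under 0.05 (14.3%), 261 positive (2.02%) and 1579 negative (12.2%). With median-ratio scaling the same 11 libraries gave 1286, of which 604 were positive and 682 negative. All 24 genes of smallest p were among the 1840, with adjusted p from 0.0028 to 0.0396. All 1840 had the same direction with all 12 libraries, where 936 had an unadjusted p under 0.05. The 11 libraries are part of the 12, so both overlaps were close to given in advance and are no support for the calls. By list, among those described above, the negative calls without I/R+B12 1 were 9 of 16 complement genes, 10 of 15 resident macrophage markers, 8 of 30 matrix genes, 7 of 26 interferon-stimulated genes, 3 of 16 antigen presentation genes, 2 of 17 cell cycle genes, 5 of 28 B12 and folate genes and 2 of 18 clock genes, to be read against 12.2% of all genes. The positive calls were 5 of 18 clock genes, 4 of 19 glucocorticoid-responsive genes, 2 of 30 fatty acid oxidation genes and 1 of 30 matrix genes, against 2.02% of all genes. The AMPK and sirtuin, TGF-beta and SMAD, and sarcomere lists had 1 call in each direction, and the respiratory chain list had 0. The I/R+B12 group then rests on 2 libraries, and the library left out is one whose nearest library, by correlation across tested genes, was I/R 1. I/R+B12 3, which stays in, was nearest to Sham 3. Without Sham 3 and I/R 3 the count was 2 of 12851 (0.0156%), Snhg9 and Gm48789. In that fit Snhg9 was above 0 only in I/R+B12. It passed the filter on low values only through that group, so its pattern was fixed by the filter.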

How the data were processed

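Poly(A)-selected heart RNA from 12 libraries, 3 in each of 4 groups, had been sequenced as paired ends. The authors deposited 1 table of FPKM values for 55487 genes; HISAT2, StringTie and mm10 are named per the submitters' processing notes, with versions and annotation not given in the sources used here. The 4 columns of group means were not used. FPKM hides the fragment counts, so depth was estimated from the steps between low values: 77.5% to 83.9% of them lay within 0.15 of a whole fragment, and an FPKM of 1 in 1500 nt stands for 30.1 to 35.4 fragments. Such figures show the counting error alone. The scale for all tests was log2(FPKM + 1), which understates changes of low genes, after a filter of FPKM 1 in at least 3 libraries. The model in limma 3.58.1 (R 4.3.3, trended variance) had 1 mean per group over all 12 libraries; tests were two-sided, p-values were adjusted by Benjamini-Hochberg over all 13001 genes and called under 0.05. Coordinates are from GENCODE M21, which holds 55141 of the IDs; upstream sequences are from RefSeq. Figures were drawn with matplotlib 3.10.9.

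The contrast, the 35 gene lists (21 of pathways, 14 of cell markers) and the naming rule were chosen with earlier results of these data known, so no list is independent evidence and lists are described by counts and medians only. The rule named the 12 genes of smallest p in each direction, the 2 members of smallest p in each list and 12 further genes (97 in all, leaving out predicted genes). Another 29 were chosen after their values were seen. Some of these genes are not reported here. On simulated data with 200 of 13001 genes changed, the interaction fit found 29% of the genes changed by 1 and 76% of those changed by 2 (log2), and 7.08% of its calls were false. The simulated noise was independent between genes, equal in all groups and without deviating libraries, unlike these data, so the rates need not hold here. Alternatives were pseudocounts of 0.1 and 0.5, no filter, a filter at FPKM 5, median-ratio scaling, quantile normalization, a robust trend or none, a replicate block, weights per library, each library left out, and the fit without Sham 3 and I/R 3. Added after seeing the data were 3: median-ratio scaling with those 2 libraries or with I/R+B12 1 left out, and all 3 left out.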

Additional observations from a re-analysis of the deposited data

How the results depend on the processing

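The count of called genes was 0 under both other pseudocounts, a filter at FPKM 5, median-ratio scaling, quantile normalization, no trend, a robust trend and the replicate block. Without a filter it was 1 (the pseudogene Cox5b-ps, -0.36), without Sham 3 and I/R 3 it was 2, and with library weights 1838 (321 positive, 1517 negative), a fit that gave I/R+B12 1 a weight of 0.17 and I/R 2 of 9.83 and stopped before convergence. With each library left out the count ranged from 0 to 1840. It was 1840 without I/R+B12 1, and 1 without Sham 2 (Morf4l1-ps1), without Sham 3 (Snhg9) and without I/R 1 (Gm47327). Without Sham 3, Snhg9 passed the filter on low values only through the I/R+B12 libraries. Of the 1840, 1389 (75.5%) were also called with weights. The fits added after seeing the data gave 2 with median-ratio scaling without Sham 3 and I/R 3, 1286 with that scaling without I/R+B12 1, and 1470 (155 positive, 1315 negative) without all 3 libraries. Apart from the fewer libraries, the cause was not tested. Genes at an unadjusted p under 0.05 numbered 792 without Sham 3 and I/R 3 and from 912 (without Sham 3) to 4036 (without I/R+B12 1) with 1 library left out. The deviations of same-numbered libraries of different groups had a mean r of 0.01 over 18 pairs, from -0.41 to 0.39. Libraries of different number had -0.009 over 36 pairs. With so few libraries a group, such values cannot settle whether the numbers pair samples, and the main fit did not pair them. The replicate block gave 0 called genes and 1579 at an unadjusted p under 0.05.

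Of 126 named genes 9 changed sign in some fit, and the cause was not tested. With library weights Napsa was -0.67, Sirt3 0.068, S100a9 -1.48 and Cfd 0.11. Without Sham 3 and I/R 3, Napsa was -0.30, Lcn2 -0.053 and S100a9 -0.99, and with median-ratio scaling besides, Napsa was -0.077, Sirt3 0.17, Tnni2 0.13, S100a9 -0.74 and Cox7a1 0.18. Without all 3 libraries Napsa was -0.16, Lcn2 -0.093, S100a9 -1.22 and Cfd 0.036. With 1 library left out Myh7 ranged from -1.23 to 0.67, Napsa from -0.30 to 0.84, S100a9 from -0.051 to 3.19 and Pf4 from -1.55 to 0.10. With median-ratio scaling without I/R+B12 1, Myh7 was 0.19.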

Other observations

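Outside the gene lists, Abca8a and Inmt had low interactions; these and the genes below were chosen after their values were seen. Abca8a, a lipid transporter of stromal cells, read 16.38, 1.76 and 3.47 FPKM in I/R+B12 against 30.69 to 50.77 in the 9 other libraries (-2.54, SE 0.72). Inmt, a methyltransferase that uses S-adenosylmethionine, read 9.63, 1.79 and 2.38 in I/R+B12 against 21.77, 7.62 and 40.78 in I/R and 37.93 to 66.43 in the 6 sham-operated hearts (-1.9996, SE 0.79). Agt, the precursor of angiotensin, had the opposite sign, with 12.36, 65.92 and 34.72 FPKM in I/R+B12 against 1.1 to 11.58 elsewhere, the highest of these in Sham 3 (3.28, SE 0.96). All 3 had an adjusted p above 0.3 in limma with all 12 libraries.

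In the sham-operated hearts, 52 genes (0.4% of those tested) had all 3 Sham+B12 libraries above the other 9. That share was below those of I/R (4.69%) and I/R+B12 (2.51%). It was not compared with the share that chance gives, so the genes named here are a description only. Besides Cyp1a1 and Cd209f (the latter tested only through its Sham+B12 values) they included Myot, a Z-disc protein of muscle, with 31.76, 24.1 and 32.88 FPKM in Sham+B12 and at most 18.7 elsewhere. Thrsp, a lipogenic nuclear protein, had 43.91, 61.09 and 45.73 against at most 43.56, and Bdh1, a ketone body enzyme, had 40.11, 40.89 and 43.01 against at most 38.47. The interactions of Myot, Thrsp and Bdh1 were -1.38, -1.06 and -1.01, made mostly of a B12 difference in Sham of 0.94, 0.65 and 0.73.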
